A study of Mus musculus with 6 samples.

Results

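Transcripts of 35 mouse genes of glycolysis and of the response to low oxygen were followed in normal bladder urothelium and in 2 lesions of the urothelium, carcinoma in situ and invasive carcinoma. The list held the enzymes and transporters that take glucose to lactate, the oxygen sensors, a set of genes that low oxygen induces, and Fbp1 and Pck2 of the reverse pathway, gluconeogenesis. Genes were found by their symbol in the array annotation, through probe sets with 1 symbol, and the probe set with the highest mean over the 6 arrays stood for a gene. This gave 33 of the 35 genes, among 18193 genes in all. Gpi1 and Eno1 were not analysed here. For Gapdh the probe sets with 1 symbol belonged to the array's control sets, so 32 members entered the main test and Gapdh is given from a fit that kept the control sets.

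The 6 Affymetrix arrays formed 3 groups of 2, all from FVB/N mice that were 8 months old: invasive carcinoma and carcinoma in situ from H-ras+/-, p53-/- mice, which the titles call double transgene, and normal urothelium from wild-type mice. Cells had been cut by laser capture from stained frozen sections, so an array read the tissue under the laser and not the whole bladder. Both lesions shared the genotype, and genotype and lesion cannot be told apart in a comparison with normal urothelium. The sources used here did not name the promoter of the transgene. Whether the arrays of a group came from separate animals was not labelled, and the p-values here reflect array-to-array spread, which could be technical. As in any bulk sample, fewer cells of a type and less RNA per cell cannot be told apart.

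Glycolysis splits glucose into pyruvate in the cytosol. Hexokinases trap the sugar in the cell, phosphofructokinase commits it to breakdown, the lower enzymes recover energy, and lactate dehydrogenase turns pyruvate into lactate, which monocarboxylate transporters carry out. When oxygen is scarce the prolyl hydroxylases stop marking hypoxia-inducible factor for destruction, and the factor then switches on many of these genes together with vessel growth and pH genes. Fructose bisphosphatase, encoded by Fbp1, undoes the phosphofructokinase step.

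The arrays were unequally close within groups. The SD over genes of the log2 difference between the paired arrays was 0.425 for invasive carcinoma, 0.220 for carcinoma in situ and 0.689 for normal urothelium. Control probe sets also differed between arrays. The Gapdh signal near the 3' end of the transcript exceeded that near the 5' end by 2.25 and 2.87 log2 units in the invasive arrays. This gap was 1.38 and 0.58 in the carcinoma in situ arrays and 2.51 and 3.79 in the normal arrays. Such a gap can come from shortened RNA, but its source was not tested. Xist, which the silenced X chromosome makes, read 10.28 and 6.43 in the invasive, 13.17 and 13.33 in the carcinoma in situ and 6.85 and 13.37 in the normal arrays. Kdm5d, a Y-linked gene, read 6.58 and 5.96 in the invasive, 2.90 and 2.84 in the carcinoma in situ and 8.28 and 7.62 in the normal arrays. Invasive array 1 and normal array 2 thus carried both transcripts, and member counts without those 2 arrays are given beside the main ones. Both carcinoma in situ arrays had high Xist and the lowest Kdm5d, whereas every other array read 5.96 or more for Kdm5d. Sex and lesion therefore cannot be told apart in comparisons that use carcinoma in situ. Leaving out those 2 arrays does not remove this, since normal array 1 and invasive array 2 carried Kdm5d with low Xist.

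In carcinoma in situ 5 genes of glycolysis rose, and so did Fbp1. Both hexokinase genes, Pfkl, Tpi1, Pgk1, the oxygen sensor gene Egln1, the stress gene Ddit4 and Fbp1 were higher than in normal urothelium, by 0.92 (Egln1) to 3.26 (Ddit4) on the log2 scale. In limma's moderated test with an adjusted p under 0.05 over all genes, 8 of 32 members rose and 0 fell. Of all genes 5.74% rose and 3.04% fell. An unadjusted p under 0.05 was reached by 19 members and by 4438 of 18193 genes. The median log2 difference over the members was 0.86, against 0.01 over all genes. Both lesion arrays lay above both normal arrays for 21 members and below them for 1, which was true of 29.3% and 25.1% of all genes. Every call of this comparison, over all genes as over the members, rested on the pair of carcinoma in situ arrays: without array 1 of that group limma called 0 of the 18193 genes (2347 at an unadjusted p under 0.05) and without array 2 it called 0 (2443), with 13 members at an unadjusted p under 0.05 in each case and adjusted p of the 8 genes between 0.094 and 0.304 and between 0.101 and 0.329. Counting both directions, 25% of the members and 8.78% of all genes were called. These shares were 12.5% (4 members) and 5.21% without either invasive array, 53.1% (17) and 23.1% without normal array 1, and 53.1% (17) and 34.9% without normal array 2 and invasive array 1 together.

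In invasive carcinoma more members passed the test than in carcinoma in situ, as did more of all genes, and Fbp1 moved the other way. Relative to normal urothelium 14 of 32 members rose and 2 fell, where 12.6% of all genes rose and 7.46% fell. Those that rose were Hk1, Hk2, Slc2a3, Pfkl, Tpi1, Pgk1, Eno2, Slc16a1, Slc16a3, Egln1, Egln3, Car9, Bnip3 and Ddit4, and those that fell were Ldhb and Fbp1. The members' median difference was 1.11, against 0.00 over all genes. Invasive arrays lay above the normal ones for 21 members and below them for 2, against 29.7% and 27.1% of all genes. Counting both directions, 50% of the members and 20.1% of all genes were called. These shares were 78.1% (25 members) and 29.6% without normal array 1, 28.1% (9) and 10.1% without either carcinoma in situ array, 21.9% (7) and 12% without invasive array 1, and 62.5% (20) and 44.9% without normal array 2 and invasive array 1 together.

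Between the lesions, which shared the genotype but not the level of Kdm5d, 3 members differed. Eno2 and Slc2a3 were higher and Fbp1 was lower in invasive carcinoma than in carcinoma in situ. These 2 higher and 1 lower of 32 members stood beside 4.18% and 1.31% of all genes, so the higher share was close to that of all genes. The median was 0.08 over the members and -0.03 over all genes. For 8 members the invasive arrays lay above the carcinoma in situ arrays and for 8 below, against 26.4% and 31.4% of all genes. Counting both directions, 9.38% of the members and 5.49% of all genes were called. The shares were 15.6% (5 members) and 13.7% without either normal array, 3.12% (1) and 0.275% without carcinoma in situ array 2, and 34.4% (11) and 32.4%, close to each other, without normal array 2 and invasive array 1 together.

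**Figure D1:**
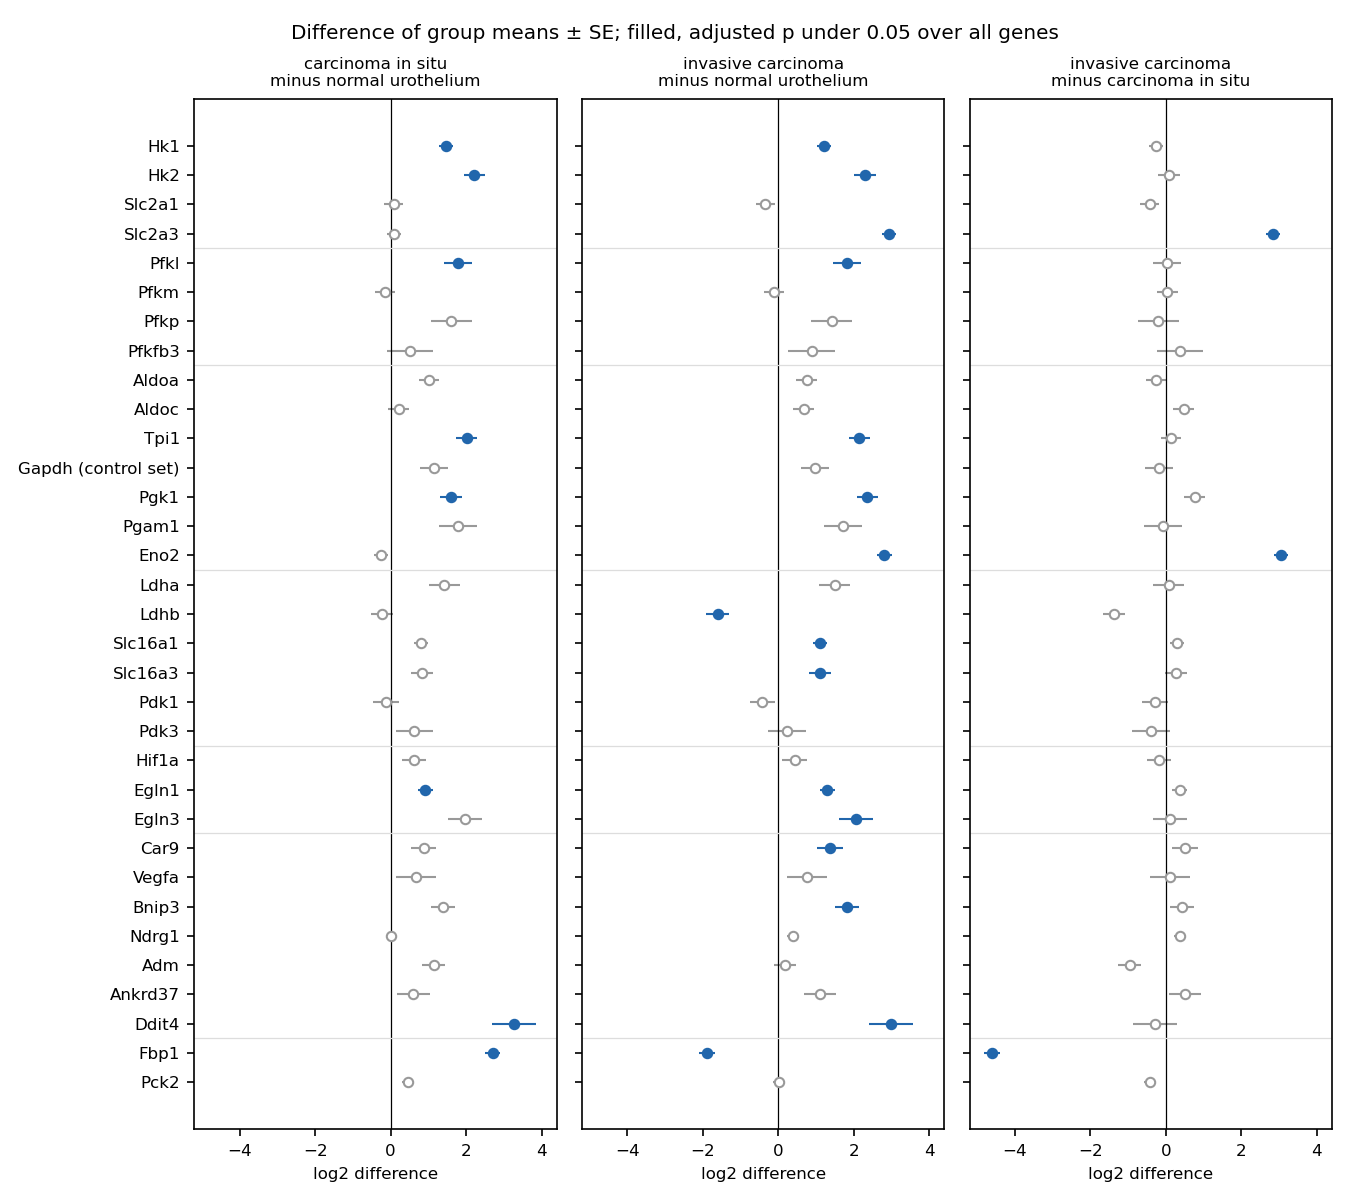
Differences of group means on the log2 scale (x axis) with the standard error of the fit, for the 33 measured genes ordered by role (y axis) in the 3 comparisons. Filled points passed an adjusted p under 0.05; Fbp1 lies at 2.70, -1.90 and -4.60, and most other filled points lie above 0 in both comparisons with normal urothelium.

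Glucose enters cells through transporters of the Slc2a family. Slc2a3, a high-affinity glucose transporter best known from neurons, read 9.24 and 8.93 in the invasive arrays, 6.16 and 6.34 in the carcinoma in situ arrays and 6.23 and 6.09 in the normal arrays. The invasive values lay above all others, and the other groups overlapped. Slc2a3 was 7.62-fold higher in invasive carcinoma than in normal urothelium (2.93 ± 0.19 SE, adjusted p = 0.000753) and 7.15-fold higher than in carcinoma in situ (2.84 ± 0.19, adjusted p = 0.00196). Another Slc2a3 probe set differed by 2.71 and 2.94 in those comparisons, whereas the 2 other sets, with means of 3.96 and 3.61 near the bottom of the scale, differed by -0.13 to 0.21. The call between lesions was lost without carcinoma in situ array 1 (2.75, adjusted p = 0.0524) and without array 2 (2.93, adjusted p = 0.0529). Slc2a1, the widespread basal glucose transporter, passed in no comparison and read 12.19 and 11.52 in the invasive, 12.38 and 12.20 in the carcinoma in situ and 12.17 and 12.25 in the normal arrays. The 95% interval of its difference ran from -0.98 to 0.28 for invasive carcinoma and from -0.55 to 0.71 for carcinoma in situ against normal urothelium. Its other probe sets, with means of 11.43 and 10.03, differed by -0.26 and -0.19 in invasive carcinoma and by 0.34 and 0.89 in carcinoma in situ. Between the lesions they differed by -0.60 and -1.08, beside -0.43 for the set used.

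Hexokinases add the first phosphate to glucose. Hk2, the inducible form found in muscle, fat and many tumours, read 10.30 and 9.59 in the invasive, 9.66 and 10.07 in the carcinoma in situ and 7.59 and 7.71 in the normal arrays. All 4 lesion arrays lay above both normal arrays, and the lesions overlapped. Hk2 rose by 2.30 ± 0.29 in invasive carcinoma (4.92-fold, adjusted p = 0.0051) and by 2.22 ± 0.29 in carcinoma in situ (4.65-fold, adjusted p = 0.0137). Its difference between the lesions, 0.08, had a 95% interval of -0.63 to 0.79. Hk1, the constitutive form, read 10.57 and 10.33 in the invasive, 10.72 and 10.69 in the carcinoma in situ and 9.41 and 9.06 in the normal arrays. It rose in both lesions, by 1.21 ± 0.19 in invasive carcinoma (adjusted p = 0.0108) and by 1.47 ± 0.19 in carcinoma in situ (adjusted p = 0.0143). The first call was lost without invasive array 1 (1.09). A dimmer Hk1 probe set, with a mean of 5.25, differed by 0.42 and 1.53 in those comparisons and by -1.11 between the lesions.

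Phosphofructokinase is built from liver, muscle and platelet type subunits. Pfkl, the liver type, read 8.95 and 9.34 in the invasive, 9.26 and 8.97 in the carcinoma in situ and 6.81 and 7.85 in the normal arrays. It rose by 1.81 ± 0.37 in invasive carcinoma (3.52-fold, adjusted p = 0.0231) and by 1.78 ± 0.37 in carcinoma in situ (3.44-fold, adjusted p = 0.044). A further Pfkl probe set differed by 1.37 and 1.53 in those comparisons, and the dimmest one by -0.39 and -0.35. Both calls were lost whichever lesion array was left out, with adjusted p of 0.0684 to 0.138 for invasive carcinoma and 0.0927 to 0.304 for carcinoma in situ. The carcinoma in situ call was also lost with a replicate block (adjusted p = 0.0503), quantile normalization (0.0604) or the mean of all probe sets (0.99, adjusted p = 0.0602). Pfkm, the muscle type, differed by -0.11 in invasive carcinoma and -0.15 in carcinoma in situ, with 95% intervals of -0.78 to 0.56 and -0.82 to 0.52. Pfkp, the platelet type, did not pass the test either, but the sizes were 1.41 and 1.61 (95% intervals 0.08 to 2.74 and 0.28 to 2.94), and its normal arrays read 8.54 and 7.09. Pfkfb3, whose product makes the activator of phosphofructokinase, differed by 0.88 and 0.52, and its normal arrays of 7.0 and 5.28 enclosed at least 1 array of each lesion.

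Below the split of the sugar, Tpi1, Pgk1 and Eno2 passed the test. Tpi1, triosephosphate isomerase, read 12.96 and 12.69 in the invasive, 12.63 and 12.73 in the carcinoma in situ and 11.02 and 10.32 in the normal arrays. It rose by 2.15 ± 0.27 in invasive carcinoma (4.45-fold, adjusted p = 0.00498) and by 2.01 ± 0.27 in carcinoma in situ (4.04-fold, adjusted p = 0.0143), and its 2 further probe sets differed by 2.05 and 2.08 in invasive carcinoma and by 1.63 and 1.88 in carcinoma in situ. Pgk1, phosphoglycerate kinase, the first enzyme of the path that yields energy, read 13.07 and 12.99 in the invasive, 12.36 and 12.18 in the carcinoma in situ and 11.05 and 10.29 in the normal arrays. The 3 groups were ordered without overlap. Pgk1 rose by 2.36 ± 0.28 in invasive carcinoma (5.14-fold, adjusted p = 0.00413) and by 1.60 ± 0.28 in carcinoma in situ (3.03-fold, adjusted p = 0.0273), and the difference of 0.76 between the lesions had an adjusted p of 0.219 (95% interval 0.08 to 1.45). Without either invasive array the carcinoma in situ call was lost (1.60, adjusted p = 0.0698), and the gene lies on the X chromosome, for which the arrays differ in Xist.

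Eno2, the enolase best known from neurons, separated the lesions. It read 6.85 and 7.12 in the invasive, 3.96 and 3.91 in the carcinoma in situ and 4.03 and 4.33 in the normal arrays. The other 4 arrays lay at the low end of the scale, where array values are compressed and folds may be understated. Eno2 was 7.0-fold higher in invasive carcinoma than in normal urothelium (2.81 ± 0.19, adjusted p = 0.000865) and 8.30-fold higher than in carcinoma in situ (3.05 ± 0.19, adjusted p = 0.00191). The second call was narrowly lost without carcinoma in situ array 2 (3.03, adjusted p = 0.0529). In the RefSeq gene order of chromosome 6, Eno2 is followed by Lrrc23, Spsb2 and Tpi1, so it lies close to Tpi1, whose values did not separate the lesions (0.14, 95% interval -0.52 to 0.80).

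The other lower enzymes did not pass the test in any comparison. Aldoa, aldolase of most tissues, differed by 0.75 in invasive carcinoma and 1.01 in carcinoma in situ relative to normal urothelium, and Aldoc, its brain form, by 0.67 and 0.21. Pgam1, phosphoglycerate mutase, differed by 1.71 (95% interval 0.46 to 2.95) and 1.79 (0.54 to 3.04). The normal arrays of Pgam1 were far apart, at 10.13 and 8.54, against 11.17 and 10.91 in invasive carcinoma and 11.02 and 11.23 in carcinoma in situ. Gapdh, read from the control set near the 3' end, was 13.18 and 13.05 in the invasive, 13.32 and 13.29 in the carcinoma in situ and 12.71 and 11.58 in the normal arrays. Its differences of 0.97 (adjusted p = 0.134) and 1.16 (adjusted p = 0.126) were uncalled, and at the 5' end the Gapdh set differed by 1.56 and 3.32.

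**Figure D2:**
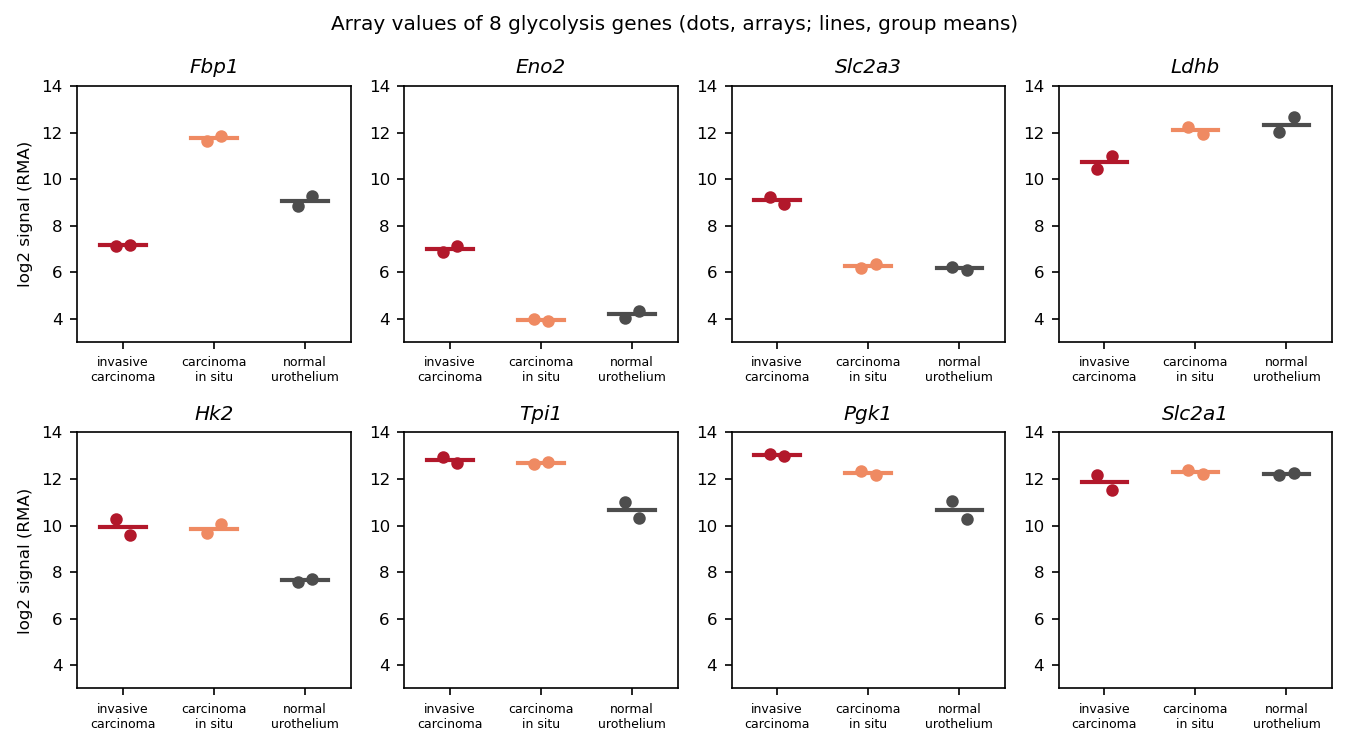
Log2 signal (y axis) of 8 glycolysis genes on each array, with invasive carcinoma, carcinoma in situ and normal urothelium from left to right; dots are arrays and lines are means of 2. Fbp1 is highest in carcinoma in situ and lowest in invasive carcinoma, Eno2 and Slc2a3 are high only in the invasive arrays, and Hk2, Tpi1 and Pgk1 are high in both lesions.

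Hypoxia-inducible factor is known to bind a short core motif in promoters, so 7 promoters are shown: those of 4 of the 7 members that rose in both lesions, of Bnip3, which rose in invasive carcinoma, and of Eno2 and Fbp1, 2 of the 3 members that differed between the lesions. They were chosen after their letters were seen, to show promoters with and without the motif, and no promoter of Slc2a3 was used here. Sequences were taken from RefSeq on build GRCm38.p6 and cover the 250 bases before the start of the gene, 5' to 3' on the strand of the gene. Capitals mark the letters ACGTG or GCGTG or, for a match on the other strand, CACGT or CACGC. The letters CACGTG count once on each strand and also hold the E-box that other factors bind. The windows are Hk2 at chr6:82774455-82774704 (minus strand), Tpi1 at chr6:124814159-124814408 (minus strand), Pgk1 at chrX:106186850-106187099 (plus strand), Ddit4 at chr10:59951771-59952020 (minus strand), Bnip3 at chr7:138909507-138909756 (minus strand), Eno2 at chr6:124769674-124769923 (minus strand) and Fbp1 at chr13:62888283-62888532 (minus strand).
Hk2: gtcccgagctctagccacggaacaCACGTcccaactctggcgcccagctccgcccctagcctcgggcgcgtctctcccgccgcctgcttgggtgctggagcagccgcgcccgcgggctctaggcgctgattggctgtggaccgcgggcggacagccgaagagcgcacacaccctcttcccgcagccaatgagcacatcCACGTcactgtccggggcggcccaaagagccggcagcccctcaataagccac
Tpi1: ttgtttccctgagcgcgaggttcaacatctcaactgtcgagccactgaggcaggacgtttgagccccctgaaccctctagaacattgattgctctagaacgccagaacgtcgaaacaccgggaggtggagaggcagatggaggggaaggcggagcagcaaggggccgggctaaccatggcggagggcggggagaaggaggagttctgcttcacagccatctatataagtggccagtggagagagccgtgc
Pgk1: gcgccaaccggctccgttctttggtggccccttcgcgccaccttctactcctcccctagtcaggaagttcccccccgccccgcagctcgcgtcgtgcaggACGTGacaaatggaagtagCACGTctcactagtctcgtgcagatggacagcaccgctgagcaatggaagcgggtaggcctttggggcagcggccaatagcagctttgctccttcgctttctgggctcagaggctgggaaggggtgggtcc
Ddit4: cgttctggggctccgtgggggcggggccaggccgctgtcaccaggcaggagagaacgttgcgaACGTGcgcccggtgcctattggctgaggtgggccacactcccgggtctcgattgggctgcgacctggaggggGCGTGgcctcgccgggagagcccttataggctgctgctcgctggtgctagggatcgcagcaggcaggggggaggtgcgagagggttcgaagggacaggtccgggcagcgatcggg
Bnip3: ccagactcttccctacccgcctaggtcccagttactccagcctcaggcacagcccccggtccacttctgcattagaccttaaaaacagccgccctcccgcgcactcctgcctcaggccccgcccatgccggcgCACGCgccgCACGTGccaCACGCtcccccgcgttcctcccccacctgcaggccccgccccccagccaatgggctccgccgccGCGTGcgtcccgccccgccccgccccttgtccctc
Eno2: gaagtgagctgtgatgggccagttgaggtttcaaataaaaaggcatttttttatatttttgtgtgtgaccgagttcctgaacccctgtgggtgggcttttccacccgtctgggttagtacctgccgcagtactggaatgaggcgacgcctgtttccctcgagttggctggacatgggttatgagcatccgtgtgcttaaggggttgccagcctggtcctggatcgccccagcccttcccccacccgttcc
Fbp1: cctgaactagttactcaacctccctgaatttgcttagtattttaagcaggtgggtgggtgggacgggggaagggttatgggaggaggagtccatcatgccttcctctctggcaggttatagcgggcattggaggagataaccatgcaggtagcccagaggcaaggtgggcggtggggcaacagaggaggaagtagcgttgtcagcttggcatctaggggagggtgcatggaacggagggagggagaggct

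The matches began at -226 and -52 in Hk2, at -150 and -131 in Pgk1 and at -187 and -115 in Ddit4, counted from the gene start. Bnip3 held 5 matches, of which those at -108 and -107 are the 2 strands of 1 CACGTG. Tpi1, which also rose in both lesions, held 0, as did Eno2 and Fbp1, which says only that these letters are not in this window. Of the other members that rose in both lesions, Egln1 held 2 and Pfkl 1 before the start, and the 2 promoters of Hk1 held 3 and 0. With the 50 bases after the start included, 34 of 42 RefSeq promoters of 31 members held a match (81.0%), against 14380 of 32851 promoters of all genes (43.8%). The motif holds a CpG, and the member promoters were richer in G and C, with a median of 61.5% against 52.7% over all promoters. Among members the match did not follow the calls: 12 of 16 promoters of genes called in at least 1 comparison held it (75.0%) and 22 of 26 promoters of genes called in none (84.6%). A match is a description of the letters and not of binding.

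At the end of the pathway Ldhb was called lower in invasive carcinoma, and Ldha was not called. Ldhb, the subunit of heart type that favours lactate use, read 10.44 and 11.01 in the invasive, 12.25 and 11.95 in the carcinoma in situ and 12.02 and 12.65 in the normal arrays. The invasive values lay below all others. Ldhb fell by 1.61 ± 0.30 relative to normal urothelium (3.05-fold, adjusted p = 0.018), and its 3 further probe sets differed by -1.32 to -1.73. That call was lost without invasive array 1 (-1.33, adjusted p = 0.0894) and without either carcinoma in situ array (-1.61, adjusted p = 0.058). The difference from carcinoma in situ, -1.38, had an adjusted p of 0.0678 (95% interval -2.13 to -0.62). Ldha, the subunit of muscle type that favours lactate production, read 12.64 and 12.29 in the invasive, 12.25 and 12.54 in the carcinoma in situ and 11.58 and 10.38 in the normal arrays, above normal in every lesion array. It was not called, at 1.49 (adjusted p = 0.0554) and 1.42 (adjusted p = 0.0992).

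Lactate leaves the cell through monocarboxylate transporters. Slc16a1, the widespread one, read 9.88 and 9.85 in the invasive, 9.42 and 9.71 in the carcinoma in situ and 8.91 and 8.60 in the normal arrays. A dimmer Slc16a1 probe set, with a mean of 4.21, differed from normal urothelium by 0.01 in invasive carcinoma and -0.07 in carcinoma in situ. Slc16a3, the export form of glycolytic cells, read 6.28 and 5.94 in the invasive, 6.19 and 5.49 in the carcinoma in situ and 5.15 and 4.84 in the normal arrays. Both rose by 1.11 in invasive carcinoma (SE 0.19 and 0.29, adjusted p = 0.0143 and 0.0474). Neither passed in carcinoma in situ, where Slc16a1 differed by 0.81 (adjusted p = 0.0632) and Slc16a3 by 0.84 (adjusted p = 0.146). The Slc16a1 call was lost without invasive array 1 (adjusted p = 0.0721) or array 2 (adjusted p = 0.0778), and the Slc16a3 call without normal array 2 (adjusted p = 0.0809) or any lesion array (adjusted p = 0.0619 to 0.206) and with arrays centred on their medians (0.0523) or quantile normalized (0.0502). The kinase genes Pdk1 and Pdk3, whose products hold pyruvate back from the mitochondria, did not pass: Pdk1 differed by -0.42 and -0.13 and Pdk3 by 0.24 and 0.63 in invasive carcinoma and carcinoma in situ relative to normal urothelium.

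Among the 3 oxygen sensing members Egln1 rose in both lesions, Egln3 passed in invasive carcinoma and just missed the threshold in carcinoma in situ, and Hif1a passed in neither. Egln1, the main prolyl hydroxylase in most cells, read 10.30 and 9.97 in the invasive, 9.65 and 9.88 in the carcinoma in situ and 8.94 and 8.74 in the normal arrays. It rose by 1.30 ± 0.20 in invasive carcinoma (adjusted p = 0.00929) and by 0.92 ± 0.20 in carcinoma in situ (adjusted p = 0.0469). The carcinoma in situ call was lost without any 1 array other than normal array 1 (adjusted p = 0.0585 to 0.329), with a replicate block (0.0802), with an intensity trend (0.0856) and with dim genes left out (0.0501). Egln3, a hydroxylase gene that hypoxia-inducible factor itself induces, read 11.04 and 9.99 in the invasive, 10.40 and 10.42 in the carcinoma in situ and 8.92 and 7.97 in the normal arrays. The lesion arrays again lay above the normal ones. Egln3 rose by 2.07 ± 0.45 in invasive carcinoma (4.21-fold, adjusted p = 0.0268), which was lost without invasive array 1 (1.55, adjusted p = 0.108) or either carcinoma in situ array (2.07, adjusted p = 0.0787). Its 1.97 in carcinoma in situ just missed the threshold (adjusted p = 0.0539). Hif1a, the oxygen-regulated subunit, which is controlled mostly at the protein level, differed by 0.43 in invasive carcinoma (95% interval -0.35 to 1.22) and 0.62 in carcinoma in situ (-0.16 to 1.41). The Hif1a value depended on the probe set. Another set, with a mean of 9.62, differed by 0.59 in invasive carcinoma and 1.16 in carcinoma in situ. The dimmer sets differed by 0.02 and -0.31 in invasive carcinoma and by 0.78 and -0.06 in carcinoma in situ.

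Of the 7 target genes of low oxygen, Ddit4, Bnip3 and Car9 passed the test. Ddit4, an inhibitor of the growth kinase mTOR that also answers other stresses, read 11.58 and 11.07 in the invasive, 11.58 and 11.64 in the carcinoma in situ and 7.44 and 9.25 in the normal arrays. All 4 lesion arrays lay above both normal arrays, which stood far apart. Ddit4 rose by 2.98 ± 0.58 in invasive carcinoma (7.89-fold, adjusted p = 0.0195) and by 3.26 ± 0.58 in carcinoma in situ (9.59-fold, adjusted p = 0.0293). Whichever lesion array was left out, both calls were lost, with adjusted p of 0.0634 to 0.11 and 0.0719 to 0.221. Bnip3, which marks mitochondria for removal, read 11.39 and 10.66 in the invasive, 10.67 and 10.52 in the carcinoma in situ and 9.52 and 8.92 in the normal arrays. It rose by 1.81 ± 0.32 in invasive carcinoma (3.50-fold, adjusted p = 0.0145), and its 1.38 in carcinoma in situ did not pass (adjusted p = 0.0566). The first of these was lost without invasive array 1 (1.44, adjusted p = 0.0614) or either carcinoma in situ array (1.81, adjusted p = 0.0526).

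Car9, a carbonic anhydrase on the cell surface that is used as a marker of hypoxic tumour, read 7.91 and 6.89 in the invasive, 6.89 and 6.90 in the carcinoma in situ and 5.96 and 6.09 in the normal arrays. It rose by 1.37 ± 0.34 in invasive carcinoma (2.59-fold, adjusted p = 0.0404), where array 1 alone stood above carcinoma in situ. Without that array the difference was 0.86 (adjusted p = 0.0651), and the call was also lost without normal array 1 (1.31, adjusted p = 0.063) or either carcinoma in situ array (1.37, adjusted p = 0.107). The other 4 targets passed in no comparison. Vegfa, the vessel growth factor, differed by 0.77 in invasive carcinoma and 0.66 in carcinoma in situ, with 95% intervals of -0.55 to 2.08 and -0.65 to 1.97. Adm, the vasodilator adrenomedullin, differed by 0.18 and 1.14, and by -0.96 between the lesions (95% interval -1.71 to -0.21, adjusted p = 0.162). Ndrg1, a stress-response gene, differed by 0.39 and 0.02, and Ankrd37 by 1.11 and 0.60. The Ndrg1 value depended on the probe set, since 4 others differed by 0.39 to 1.25 in invasive carcinoma and by 0.57 to 1.5 in carcinoma in situ.

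**Figure D3:**
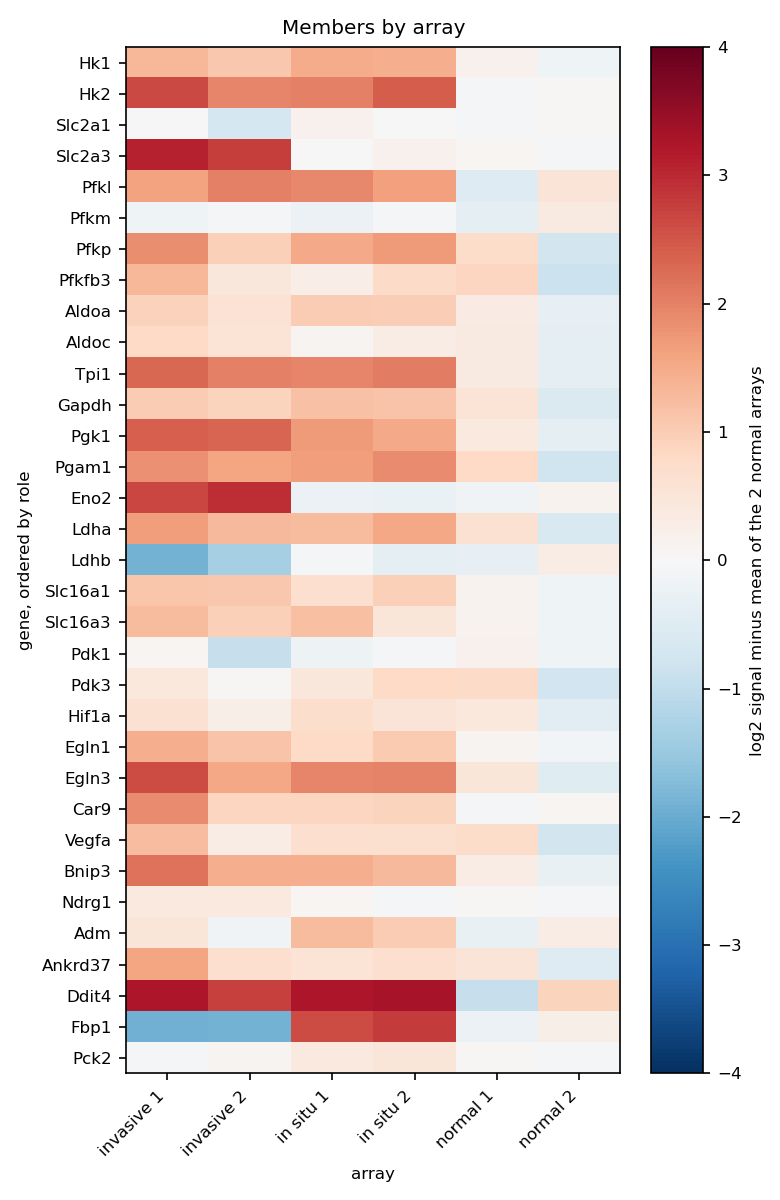
Log2 signal of each of the 33 genes (rows, ordered by role) on each array (columns) minus the mean of the 2 normal arrays; red is above and blue below that mean. Most rows are red in the 4 lesion arrays, Fbp1 is blue in the invasive and red in the carcinoma in situ columns, and normal array 2 is below normal array 1 for many genes.

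Fbp1, the opposing step, had the largest difference between the lesions of all members. It read 7.13 and 7.16 in the invasive, 11.65 and 11.84 in the carcinoma in situ and 8.82 and 9.27 in the normal arrays. The groups did not overlap, with carcinoma in situ above and invasive carcinoma below normal urothelium. Fbp1 fell by 1.90 ± 0.21 in invasive carcinoma (3.72-fold, adjusted p = 0.00322) and rose by 2.70 ± 0.21 in carcinoma in situ (6.50-fold, adjusted p = 0.00475). Between the lesions it was 24.2-fold lower in invasive carcinoma (-4.60 ± 0.21, adjusted p = 0.000922). The calls against normal and between lesions in invasive carcinoma held in all 17 alternative analyses, while the carcinoma in situ call was lost without array 1 (2.80, adjusted p = 0.094) or array 2 (2.60, adjusted p = 0.101) of that group. Its only probe set with 1 symbol was used, so no second set bears on it. Pfkl, the step that Fbp1 opposes, differed by 0.03 between the lesions (95% interval -0.89 to 0.96). Pck2, the mitochondrial enzyme that feeds gluconeogenesis, differed by 0.03 in invasive carcinoma and 0.45 in carcinoma in situ relative to normal urothelium, with 95% intervals of -0.37 to 0.44 and 0.04 to 0.85.

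Other genes of these pathways were counted from further lists. Over all genes 12.6% rose and 7.46% fell in invasive carcinoma, and 5.74% rose and 3.04% fell in carcinoma in situ. Between the lesions 4.18% of all genes were higher and 1.31% lower in invasive carcinoma. Of 14 other glycolysis and lactate genes, Bpgm, which makes the regulator of oxygen release in red cells, rose in invasive carcinoma (1.36) and Slc16a7, a high-affinity monocarboxylate transporter, fell there by 3.78. In carcinoma in situ 1 of the 14, Pfkfb4, fell by 1.15. Between the lesions Eno3, muscle enolase, was higher (2.21) and Slc16a7 lower (-2.44) in invasive carcinoma. The list's median was 0.27 in invasive carcinoma and -0.03 in carcinoma in situ relative to normal urothelium. Of 10 genes of pyruvate entry to mitochondria, Pdk4, a kinase that shuts pyruvate out during fasting, fell by 2.47 in invasive carcinoma and by 2.42 in carcinoma in situ, and Pcx, pyruvate carboxylase, fell by 1.31 in invasive carcinoma. Among 5 other gluconeogenesis genes G6pc3 fell in invasive carcinoma by 0.88, and none passed in the other comparisons. Of 6 pentose phosphate genes Rpia rose in carcinoma in situ (0.92).

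Some hypoxia genes outside the member list rose in each lesion. Of 24 other hypoxia response genes 11 rose and 0 fell in invasive carcinoma, and 6 rose and 0 fell in carcinoma in situ. Between the lesions 5 were higher and 0 lower in invasive carcinoma than in carcinoma in situ. In the same order 12.6%, 5.74% and 4.18% of all genes were called higher and 7.46%, 3.04% and 1.31% lower. The medians of the list were 1.41, 0.68 and 0.41. P4ha2, a collagen prolyl hydroxylase gene, rose by 4.12 in invasive carcinoma and by 2.36 in carcinoma in situ, and the transcription factor gene Bhlhe40 rose by 3.36 and 2.49. Angptl4, a lipase inhibitor, rose by 2.21 in invasive carcinoma and by 2.02 in carcinoma in situ. Lox and Plod2, which crosslink collagen, and the chemokine receptor gene Cxcr4 were higher in invasive carcinoma than in carcinoma in situ, by 4.94, 3.41 and 2.08, and Lox rose by 4.72 over normal urothelium. Of 8 genes of the factor system itself 1 rose, Epas1, the other oxygen-regulated subunit, by 1.26 in invasive carcinoma and 2.02 in carcinoma in situ. Egln2, the other prolyl hydroxylase gene of this family, differed by 0.74 (adjusted p = 0.262) and 0.79 (adjusted p = 0.305).

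The marker lists of other cells also differed between groups. Their counts stand beside 12.6% of all genes higher and 7.46% lower in invasive carcinoma than in normal urothelium. For carcinoma in situ these shares were 5.74% and 3.04%, and between the lesions 4.18% and 1.31%. Of 16 urothelial markers, which define the labelled tissue and none of which was below the array median throughout, 7 fell in invasive carcinoma and 3 in carcinoma in situ, and their summed linear signal was 89270 and 62072 in the invasive, 105021 and 112846 in the carcinoma in situ and 151860 and 98614 in the normal arrays. Of 8 fibroblast markers 5 rose and 0 fell in invasive carcinoma, and 1 rose and 1 fell in carcinoma in situ. Their sums were 27005 and 47768 in the invasive, 1403 and 1369 in the carcinoma in situ and 5938 and 3867 in the normal arrays. Between the lesions 6 of these 8 were higher in invasive carcinoma. So were 2 of 7 smooth muscle, 1 of 8 macrophage and 1 of 6 neutrophil markers. Of 16 urothelial markers 1 was higher and 3 were lower there, of 9 endothelial markers 1 was lower, and the other lists had no call. Macrophage markers rose for 7 of 8 in invasive carcinoma and 1 in carcinoma in situ, with sums of 12081 and 16997 in the invasive, 4591 and 5045 in the carcinoma in situ and 2929 and 2023 in the normal arrays, and Itgam was below the array median on every array. For neutrophil markers 2 of 6 rose in invasive carcinoma and 1 in carcinoma in situ, with sums of 6682 and 6101 in the invasive, 1586 and 1448 in the carcinoma in situ and 1170 and 230 in the normal arrays, and Mpo was below the array median throughout. Endothelial markers rose for 9 of 9 in invasive carcinoma and 5 in carcinoma in situ, with sums of 2042 and 2370 in the invasive, 1977 and 1900 in the carcinoma in situ and 638 and 774 in the normal arrays, and Pecam1, Tek and Tie1 were below the array median throughout. Markers of dividing cells rose for 9 of 9 in invasive carcinoma and 8 in carcinoma in situ, as did the hexokinase genes, Tpi1 and Pgk1, with sums of 4139 and 3952 in the invasive, 2730 and 2773 in the carcinoma in situ and 436 and 460 in the normal arrays. Smooth muscle, erythroid, and T and B cell markers gave 1 of 7 higher, 1 of 3 lower and 1 of 7 higher in invasive carcinoma and none called in carcinoma in situ. The part of other cells in the members' differences was not tested.

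**Figure D4:**
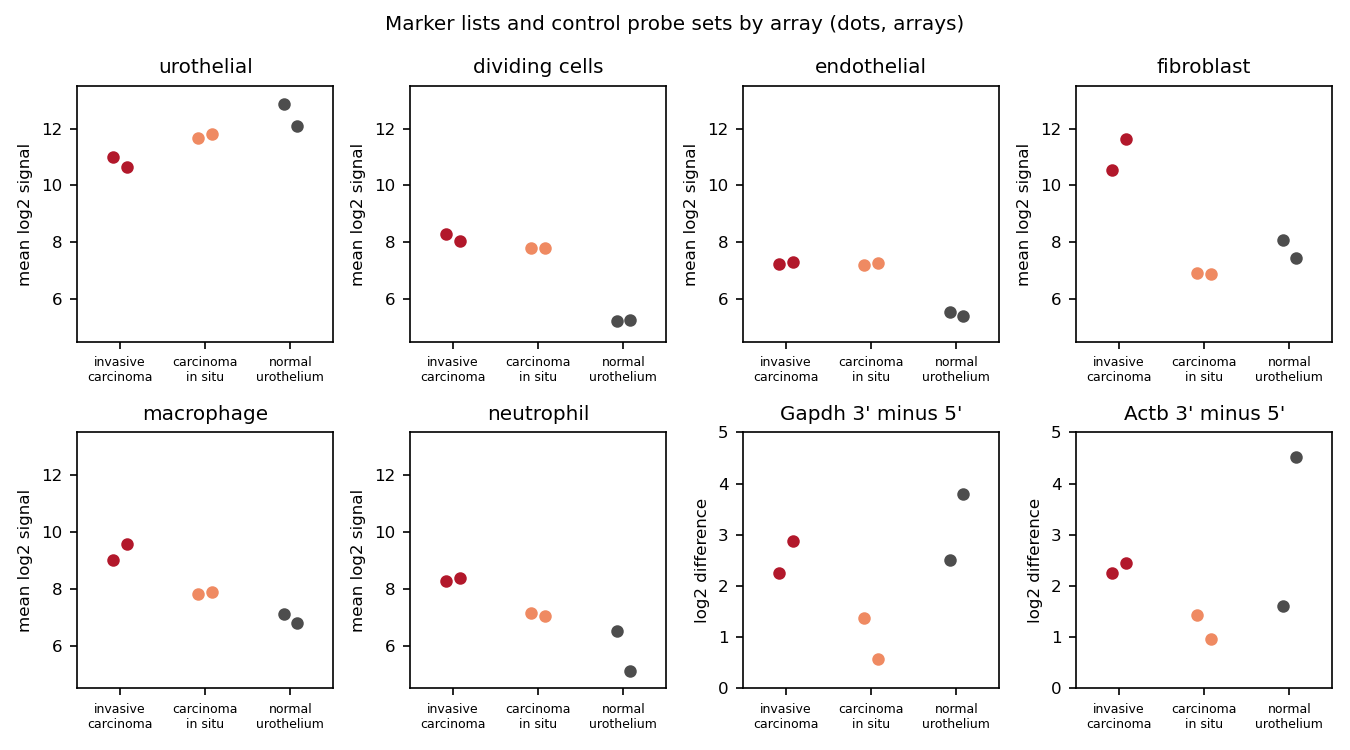
Mean log2 signal (y axis) of 6 marker lists and the log2 difference between the 3' and 5' control probe sets of Gapdh and Actb on each array; dots are arrays, with invasive carcinoma, carcinoma in situ and normal urothelium from left to right. Fibroblast markers are high in the invasive arrays, markers of dividing cells in both lesions, and the control differences are smallest in carcinoma in situ and largest in normal array 2.

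The gap between control ends also moved with the groups, since it was smallest in the carcinoma in situ arrays and largest in normal array 2. With the mean of the Gapdh and Actb gaps as a covariate, an alternative chosen after seeing the data, 7 members were called in carcinoma in situ, 20 in invasive carcinoma against normal urothelium and 9 between the lesions, which was 21.9%, 62.5% and 28.1% of the members beside 18.6%, 37.6% and 10.4% of all genes. These included 6, 16 and 3 of the members called without it. In carcinoma in situ the shares were thus close to each other, against 25% and 8.78% without the covariate. There 11 of 32 members and 5825 of 18193 genes had an unadjusted limma p under 0.05, against 19 members and 4438 genes without the covariate. Hk2 then differed by 2.26 in invasive carcinoma and 2.10 in carcinoma in situ, and Fbp1 by -1.79 and 3.04. In carcinoma in situ Pgk1 (0.98, adjusted p = 0.0609) and Egln1 (0.64, adjusted p = 0.151) were no longer called.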

How the data were processed

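Per the submitters' processing notes, the authors made the deposited log2 values with Partek and RMA, whose versions were not given; RMA brings all arrays to a common distribution, so a difference in total RNA is removed. The deposited table held 45101 probe sets on 6 arrays, with array medians of 6.07 to 6.14, and no further normalization was applied. A deposited table of fold changes was not used. Symbols came from the platform annotation: 34958 probe sets had 1 symbol, 932 several and 9211 none.

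Group means of all 6 arrays were fitted with limma 3.58.1 under R 4.3.3 (eBayes, 3 residual and 2.69 prior degrees of freedom). Two-sided p-values were adjusted by Benjamini-Hochberg over 18193 genes and called under 0.05. Members and lists were chosen with earlier results of these data known, so their counts are descriptions. Every measured member is accounted for, those called in at least 1 comparison in full, and of each other list at most 3 called genes per comparison are named by size. The fit was tested on simulated data. The number of arrays, 2 per group, limits the precision.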

Additional observations from a re-analysis of the deposited data

Results flagged for a closer look

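Fbp1 and Eno2 stood out because every array of 1 lesion lay on the opposite side of every normal array from the other lesion. The share of all genes that met this rule was not counted. Carcinoma in situ arrays lay above the normal ones for 29.3% of all genes and below them for 25.1%. For invasive arrays these shares were 29.7% and 27.1%. Fbp1 lay below normal urothelium in both invasive arrays and above it in both carcinoma in situ arrays, and it differed by -4.60 between the lesions (limma adjusted p = 0.000922). Eno2 lay above normal urothelium in both invasive arrays and below it in both carcinoma in situ arrays, and it differed by 3.05 between the lesions (limma adjusted p = 0.00191). Its carcinoma in situ difference from normal urothelium, -0.25, was not called (adjusted p = 0.515), so for Eno2 the opposite movement itself rests on uncalled values.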

How the results depend on the processing

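With 2 arrays per group the counts moved with the arrays used, for members and for all genes, and the cause was not tested. With all 6 arrays 8.78%, 20.1% and 5.49% of all genes were called, in the order of comparisons given next. Each of these shares rose without either normal array and fell without any 1 lesion array. The ranges of member counts below are therefore not particular to the members. Leaving out 1 array gave 0 to 17 called members for carcinoma in situ against normal urothelium, 7 to 25 for invasive carcinoma against normal urothelium and 1 to 5 between the lesions, with medians of 0.68 to 1.19, 0.79 to 1.35 and -0.16 to 0.27. With both carcinoma in situ arrays averaged to 1 sample the medians were 0.86, 1.11 and 0.08. With only the 4 arrays compared, 12.5%, 28.1% and 15.6% of the members were called, beside 5.21%, 10.1% and 13.7% of all genes. Between the lesions these shares were close to each other. The counts of called members with those 4 arrays were 4, 9 and 5. Without normal array 2 and invasive array 1 together they were 17, 20 and 11, the medians of the comparisons of invasive carcinoma with normal urothelium and with carcinoma in situ were 0.53 and -0.16, and Pdk3 reversed to -0.70 against normal urothelium. With the covariate for the control gap 9 members were called between the lesions, and Pgam1 reversed to 0.90 there. With the mean of all probe sets of a gene the median of invasive carcinoma against normal urothelium was 0.79. The other scalings, filters and the trended prior gave counts within 1.5 times the main ones, but ended the calls of Pfkl (quantile normalization, mean of all probe sets) and Egln1 (trended prior, dim filter) in carcinoma in situ and of Slc16a3 (centring, quantile normalization) in invasive carcinoma. With the replicate block the counts were 8, 16 and 3, of which 6, 16 and 3 were the same members as without it. Those counts were 25%, 50% and 9.38% of the members beside 6.3%, 18.2% and 4.88% of all genes. Pfkl (adjusted p = 0.0503) and Egln1 (0.0802) lost their calls in carcinoma in situ. Same-numbered arrays did not deviate together in every pair of groups (correlations of -0.385, 0.375 and -0.344). With 2 arrays per group each correlation rests on 1 difference per group, so it cannot decide whether same-numbered arrays share an animal or batch.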
